A study of Mus musculus with 8 samples.

Results

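The peripheral myelin genes, 9 genes that Schwann cells use to build and maintain their myelin sheaths, were Mbp, Pmp22, Prx, Mag, Ncmap, Drp2, Pllp, Mal and Egr2. They were followed in ganglia of the dorsal roots of adult mice, where the somata of sensory neurons lie among glia. They were chosen by gene symbol, 9 of 40800 gene identifiers in the deposited table, and all 9 were among the 15030 genes with enough reads to test. The 4 control animals were C57BL/6 wild types, and the other 4 carried a Tmem184b gene trap on both alleles on a C57BL/6 background. All were 6 months old. Such a trap inserts a splice acceptor that truncates the transcript. It is present in the germ line, so neurons and glia both carried it. The tissue was whole ganglion, and no label gives sex, litter or batch. Samples are named by genotype and label number, wild types 1, 3, 4 and 8 and mutants 1, 2, 3 and 4, and per-sample values follow this order.

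Myelin is a spiral of Schwann cell membrane around a large axon. Its compact part is held together by membrane proteins such as the tetraspan Pmp22 and, on the cytoplasmic side, by Mbp, whereas the loops next to the node of Ranvier and the innermost and outermost layers stay uncompacted and hold Mag, Ncmap and the Prx-Drp2-dystroglycan complex. The zinc-finger factor Egr2 (Krox20), acting with Sox10, switches on most of these genes. In a ganglion, myelinating Schwann cells sit beside satellite glia, neurons and connective tissue, so a level in whole ganglion is a share of all RNA. Fewer cells of a type and less RNA per cell cannot be told apart in such bulk samples.

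Because Egr2 is itself a member, promoter windows of the members were searched for the core letters of sites that EGR factors bind, GTGGGNG, and for ACAAAG and ACAATG, which SOX factors bind, on both strands. The windows, from RefSeq on GRCm38.p6, run from 250 bases before to 50 after each start. The search of members covered 17 windows from 7 of the 9 genes. No window of Mbp or Drp2 was part of it, so the member shares below leave both genes out, and their promoters were not tested. GTGGGNG stood in 6 of the 17 (35.3%), from Egr2, Mag, Ncmap and Prx, against 31.6% of all 32851 windows, so the members were close to the background. Windows of a gene can overlap, as some of Egr2 and Mag do, and the Mag windows with a match held the same site. ACAAAG stood in 2 of the 17 windows, both of Mag and overlapping each other, against 18.7% of all windows, and ACAATG in 0 of 17 against 12.6%. The longer EGR site GCGTGGGCG, which contains the core, was in 0 of 17 and in 0.6% of all windows. The 250 bases upstream of the outermost start are shown for the 3 genes that hold a GTGGGNG match there, with the match or its reverse complement in capitals. They lie at chr10:67535249-67535498 on the plus strand (Egr2), chr4:135398228-135398477 on the minus strand (Ncmap) and chr7:27499074-27499323 on the plus strand (Prx).
Egr2: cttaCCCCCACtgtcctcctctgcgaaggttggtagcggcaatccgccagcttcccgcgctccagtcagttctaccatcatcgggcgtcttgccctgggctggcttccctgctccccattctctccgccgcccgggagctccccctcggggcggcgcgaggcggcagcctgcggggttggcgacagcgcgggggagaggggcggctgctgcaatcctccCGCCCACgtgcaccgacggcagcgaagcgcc
Ncmap: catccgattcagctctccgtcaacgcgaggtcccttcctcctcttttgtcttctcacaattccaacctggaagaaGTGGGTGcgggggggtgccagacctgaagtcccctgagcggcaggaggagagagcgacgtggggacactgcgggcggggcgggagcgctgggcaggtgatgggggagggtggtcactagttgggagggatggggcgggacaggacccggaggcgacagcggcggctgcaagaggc
Prx: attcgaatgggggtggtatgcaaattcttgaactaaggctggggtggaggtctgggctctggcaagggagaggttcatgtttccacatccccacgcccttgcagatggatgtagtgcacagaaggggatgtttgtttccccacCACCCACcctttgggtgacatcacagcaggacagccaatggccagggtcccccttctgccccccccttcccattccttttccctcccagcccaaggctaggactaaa
A match marks letters alone and says nothing of binding. Of these genes Ncmap rose in the mutant, and Egr2 and Prx did not pass the test, as described next.

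Values are log2 CPM, the logarithm of a gene's share of its library's reads (CPM) with a small prior count added. A gene counts as called where its limma p, adjusted over all 15030 genes, is under 0.05. Library totals were 6183618 to 7983821 reads. Tmem184b gave 1086 to 1456 reads per wild-type library and 34 to 58 per mutant library, a log2 difference of -4.64 (SE 0.11; limma adjusted p = 2.57e-12). Columns carry running numbers that form 1 unbroken run in the mutants but not in the controls, and a batch behind them cannot be told apart from genotype.

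Of the 9 myelin genes 2 rose in the Tmem184b mutant, Ncmap by 1.62-fold and Drp2 by 1.32-fold, and 0 fell. Over all genes tested 5.46% were called, 2.81% higher and 2.64% lower. All 4 mutants lay above all 4 wild types for 2 of the 9 and below for 0, against 7.5% and 4.92% of all genes. Another 4 members, Egr2, Pllp, Mal and Mbp, had an unadjusted p under 0.05 in the same direction and missed the adjusted threshold. That makes 6 of the 9 higher and 0 lower at an unadjusted p under 0.05, against 14.1% and 7.21% of all genes. Pmp22, Mag and Prx did not pass either threshold. The median log2 difference of the 9 was 0.32, and that of all genes tested was 0.07, with 8 of the 9 above 0 against 64.4% of all genes. Under quantile normalization 7 of the 9 were above 0, Mag lying at -0.0019. Of all genes called, 51.6% were higher in the mutant, and 22.4% after median centring, which left the calls of Ncmap and Drp2 in place.

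**Figure D1:**
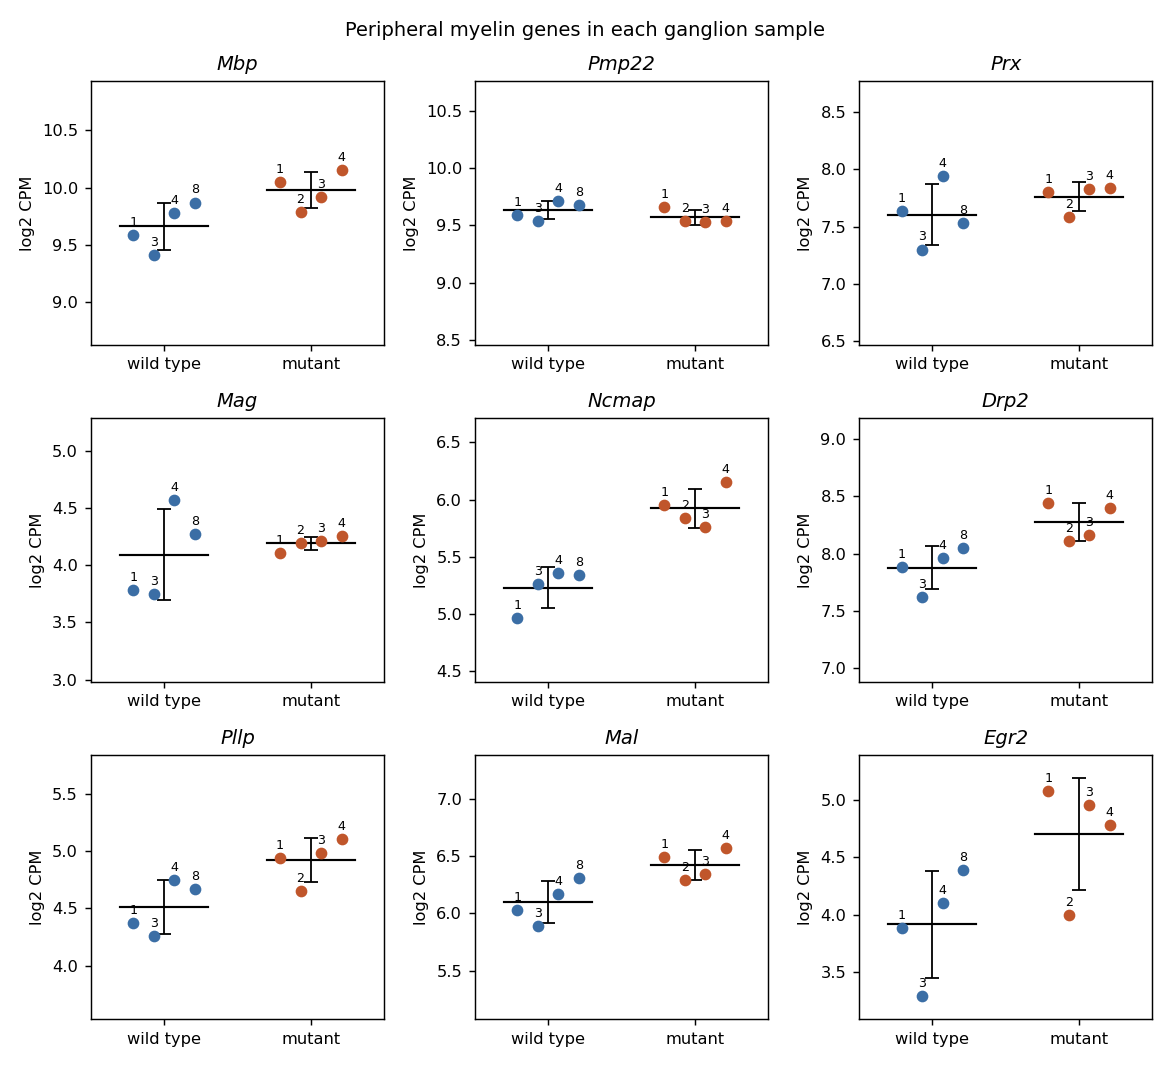
Log2 CPM (y axis) of each myelin gene in the 4 wild-type (blue) and 4 mutant (orange) samples; points carry the sample number, the horizontal line is the mean and the bar is 1 SD. Every panel spans the same log2 range. The genotypes do not overlap for Ncmap and Drp2, and Pmp22 is nearly level.

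Ncmap (noncompact myelin associated protein, ENSMUSG00000043924) is a small membrane protein of Schwann cells. It stood at 4.97, 5.26, 5.36 and 5.34 log2 CPM across the wild-type ganglia, against 5.95, 5.84, 5.76 and 6.15 across the mutant ones. Every mutant lay above every wild type. The difference was 0.69 (SE 0.10; limma adjusted p = 0.00157), from 37.5 ± 4.42 to 60.8 ± 7.32 CPM (SD, n = 4). It was called in all 23 alternative analyses, with differences between 0.43 and 0.76.

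Drp2 (ENSMUSG00000000223), on the X chromosome, encodes dystrophin related protein 2, which ties periaxin to dystroglycan at the outer face of the myelin sheath. Its log2 CPM was 7.88, 7.62, 7.96 and 8.05 across the wild-type ganglia, against 8.44, 8.11, 8.16 and 8.40 across the mutant ones. The groups were again apart, although wild type 8 was just under mutant 2. Pllp, which was not called, had a like difference, and the log2 ratios of Drp2 to Mbp, Mal and Pllp overlapped between genotypes. The difference was 0.40 (SE 0.09; limma adjusted p = 0.0203), from 236 ± 29.3 to 312 ± 35.8 CPM (SD, n = 4). The call was lost without wild type 1 (limma adjusted p = 0.0589), wild type 3 (0.0549), mutant 1 (0.0693) or mutant 4 (0.054), and without the variance trend (0.142). Xist was high in 3 wild types and 2 mutants. The Y-linked gene Ddx3y had 330, 286 and 358 reads in wild type 3, mutant 3 and mutant 4, where Xist was low. It had 0 to 3 reads in the other samples. By these genes wild type 3, mutant 3 and mutant 4 were male and the others female. With Xist as a covariate Drp2 differed by 0.43 (limma adjusted p = 0.0168).

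Prx, the partner of Drp2, did not pass the test. Prx (ENSMUSG00000053198) encodes periaxin, a scaffold of the outer Schwann cell membrane whose loss causes a demyelinating neuropathy. It was at 7.64, 7.30, 7.94 and 7.53 log2 CPM across the wild-type ganglia, against 7.80, 7.58, 7.83 and 7.84 across the mutant ones. All 4 mutants lay inside the wild-type range, and the difference was 0.16 (95% interval -0.06 to 0.39; limma adjusted p = 0.394). Mag (ENSMUSG00000036634), an adhesion molecule of the layer facing the axon, was at 3.78, 3.75, 4.57 and 4.27 across the wild-type ganglia, against 4.11, 4.19, 4.21 and 4.25 across the mutant ones. The mutants were tightly grouped, with wild types 1 and 3 below them and 4 and 8 above. The difference was 0.10 (95% interval -0.24 to 0.43; limma adjusted p = 0.774). Mag rested on 85 to 158 reads per library, and a change of the size seen in Drp2 lies within its interval.

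Mbp, Mal and Pllp lay near the threshold without being called, and Mal was called in 8 of 23 alternatives, Mbp in 6 and Pllp in 5. Mbp (ENSMUSG00000041607) was at 9.59, 9.41, 9.78 and 9.87 log2 CPM across the wild-type ganglia, against 10.05, 9.79, 9.92 and 10.15 across the mutant ones. Mutant 2 lay below wild type 8 alone and the other mutants lay above every wild type, with a difference of 0.31 (SE 0.09; limma adjusted p = 0.0679). Mal (ENSMUSG00000027375), a small MARVEL-domain proteolipid of membrane sorting, was at 6.03, 5.89, 6.17 and 6.31 across the wild-type ganglia, against 6.49, 6.29, 6.34 and 6.57 across the mutant ones. Mutant 2 lay just below wild type 8 and the other mutants above every wild type. The difference was 0.32 (SE 0.09) and its adjusted p, 0.0516 by limma, was just over the threshold. Pllp (ENSMUSG00000031775), plasmolipin, another MARVEL-domain protein, was at 4.37, 4.26, 4.75 and 4.67 across the wild-type ganglia, against 4.94, 4.65, 4.98 and 5.10 across the mutant ones. The overlap again came from mutant 2, and the difference was 0.41 (SE 0.12; limma adjusted p = 0.0723).

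Pmp22 (ENSMUSG00000018217), the tetraspan protein whose gene duplication causes a form of Charcot-Marie-Tooth disease, had the difference nearest 0. It was at 9.59, 9.54, 9.71 and 9.68 log2 CPM across the wild-type ganglia, against 9.66, 9.54, 9.53 and 9.54 across the mutant ones. The genotypes overlapped throughout, at 794 ± 44.2 and 760 ± 34.3 CPM (SD, n = 4). The difference was -0.06 with a 95% interval of -0.18 to 0.06 (limma adjusted p = 0.570), an interval that excludes a rise of the size estimated for Mbp, Mal or Drp2. Its log2 ratio to Ncmap was 4.28 to 4.61 over wild-type samples against 3.39 to 3.77 over mutant samples. Of the 36 ratios between members, 7 were apart between genotypes, 5 of them with Pmp22 (against Mbp, Mal, Ncmap, Drp2 and Pllp), each at an exact two-sided permutation p of 0.0286, the smallest that 4 against 4 samples allow. After adjustment over the 36 ratios none passed, the smallest adjusted value being 0.147.

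Egr2 (ENSMUSG00000037868) had the largest difference of the 9 and also the largest spread. It was at 3.88, 3.29, 4.10 and 4.39 log2 CPM across the wild-type ganglia, against 5.08, 4.0, 4.96 and 4.78 across the mutant ones, from 76 to 224 reads. Mutants 1, 3 and 4 were above every wild type, and mutant 2 was below wild types 4 and 8. The difference was 0.79 (SE 0.23, 95% interval 0.29 to 1.28; limma adjusted p = 0.0644), from 15.4 ± 4.69 to 26.8 ± 7.83 CPM (SD, n = 4). Without mutant 2 it was 1.02 (limma adjusted p = 0.0125) and without wild type 8 it was 0.94 (0.040), whereas under the robust trend its adjusted p was 0.21.

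**Figure D2:**
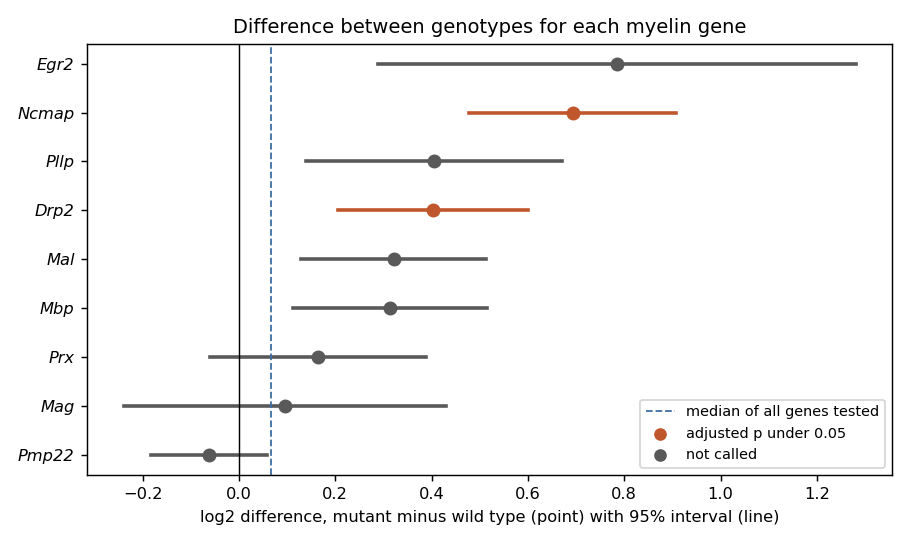
Log2 difference between mutant and wild type (x axis) for each myelin gene, with its 95% interval; orange marks an adjusted p under 0.05. Egr2 has the widest interval, Pmp22 the narrowest, and the dashed blue line is the median of all genes tested, 0.07.

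The count of myelin genes called depended on single samples. It was 1, Ncmap alone, without wild type 1, wild type 3, mutant 1 or mutant 4. It was 5 without wild type 8 or without mutant 2. Wild type 3 was the lowest of all 8 samples for 7 of the 9 genes, and mutant 2 was the lowest mutant for Mbp, Prx, Drp2, Pllp, Mal and Egr2.

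Within a genotype the myelin genes varied together. After subtraction of each genotype's mean, the 36 pairs of members correlated over the 8 samples at a median r of 0.68, from 0.19 for Prx with Ncmap to 0.99 for Mbp with Mal. These values are descriptive: the samples share their scaling to the library total. Mbp, Pllp, Mal and Drp2 followed the mean of the other 8 members most closely, at r of 0.96, 0.93, 0.91 and 0.88, and Ncmap least, at 0.52. The mean standardized deviation of the 9 genes was -0.56, -1.25, 0.99 and 0.82 across the wild-type ganglia, against 0.48, -0.88, -0.20 and 0.60 across the mutant ones. Wild type 3, with Xist at -0.89 log2 CPM, and mutant 2, with Xist at 8.25, were the low samples of their genotypes.

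**Figure D3:**
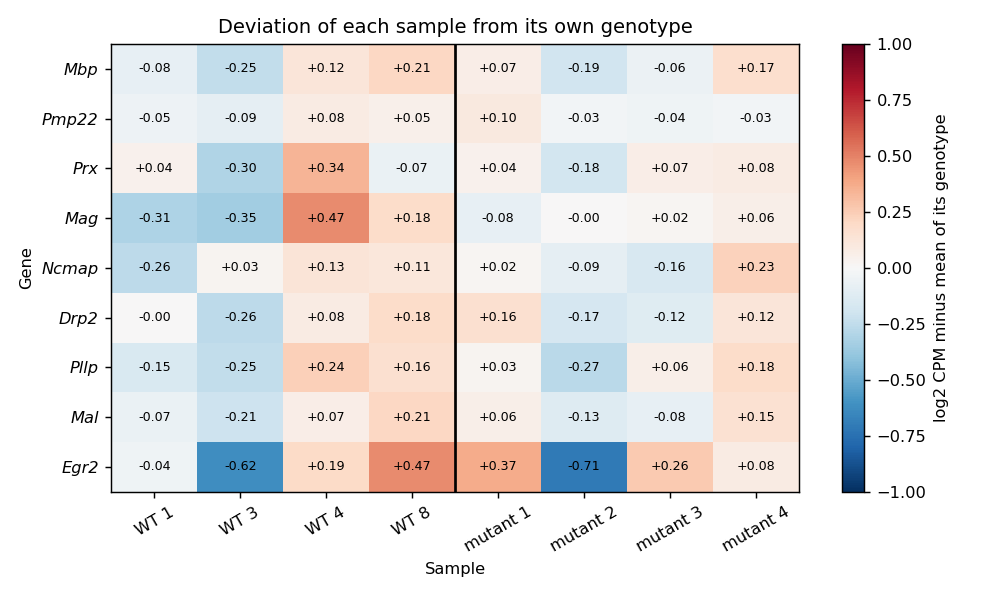
Deviation of each sample from the mean of its own genotype, in log2 CPM, for each myelin gene (rows) and sample (columns; the vertical line separates genotypes). Wild type 3 and mutant 2 are low for most genes, and Egr2 varies most, from -0.71 to 0.47.

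The 10 other genes whose deviations followed the mean of the members most closely were Adhfe1, Limch1, Pmp2, Cenpj, Sla, Fgf7, Plekhf1, Rpf2, Mfap3l and Car8, at Pearson r of 0.98 down to 0.95 over 8 samples. They are the top of 15030 genes ranked on 8 samples, and the ranking is a description. Pmp2, a fatty-acid-binding protein of peripheral myelin, was at 0.965. Between genotypes Pmp2 had a negative value, from 2.47, 1.72, 3.22 and 3.23 log2 CPM in the wild types to 2.25, 1.68, 2.20 and 2.48 in the mutants (-0.51, SE 0.30; limma adjusted p = 0.35), from 18 to 72 reads. The groups overlapped.

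Other genes of myelin structure and adhesion, 11 reported here, held 1 called higher and 0 called lower, against 2.81% and 2.64% of all genes. Their median log2 difference was 0.18, with 8 above 0 and 3 below. At an unadjusted limma p under 0.05, 4 were higher and 1 lower, against 14.1% and 7.21% of all genes. The lower one was Cd9 at -0.20 (limma adjusted p = 0.0692), with all 4 mutants below all 4 wild types. Cldn11, a tight-junction claudin made by meningeal cells and oligodendrocytes, rose by 0.90 (SE 0.24, limma adjusted p = 0.0427). Its groups overlapped, with mutant 3 at 3.97 and wild type 4 at 4.40. Cldn11 lost its call in 10 of 22 alternatives, among them leaving out wild type 1, 3 or 8 or mutant 1, 2 or 4, and rested on 59 to 209 reads per library.

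The list of partners of Prx and Drp2, laminin receptors and basal lamina genes held more calls than any other list examined. The part of cells other than Schwann cells in these levels was not tested. Of 15 tested genes 6 rose and 0 fell, with a median of 0.13, against 2.81% called higher over all genes. They were Dmd (dystrophin) by 0.42 (limma adjusted p = 0.00386), Slc9a3r1 (the scaffold NHERF1) by 0.41 (0.00638), Sgce (epsilon-sarcoglycan) by 0.40 (0.0379), Itga6 by 0.30 (0.0429), Itgb4 by 0.46 (0.0489) and Lama2 (laminin alpha 2) by 0.35 (0.0473). Itga6 and Itgb4 together form a laminin receptor of Schwann cells. Dystroglycan itself, Dag1, differed by 0.06 (limma adjusted p = 0.718) and utrophin, Utrn, by 0.13 (0.147). Of the 15 genes 12 lay above 0 and 3 below, Sgcd at -0.24 (limma adjusted p = 0.212), Sgcb at -0.08 and Itgb1 at -0.04. At an unadjusted limma p under 0.05, 7 were higher and 1 lower, against 14.1% and 7.21% of all genes. Dmd and Slc9a3r1 lost their call in 1 of 22 alternatives, without the variance trend. Sgce kept it in 10, Lama2 in 9, Itga6 in 8 and Itgb4 in 6. Median centring ended the last 4 calls.

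**Figure D4:**
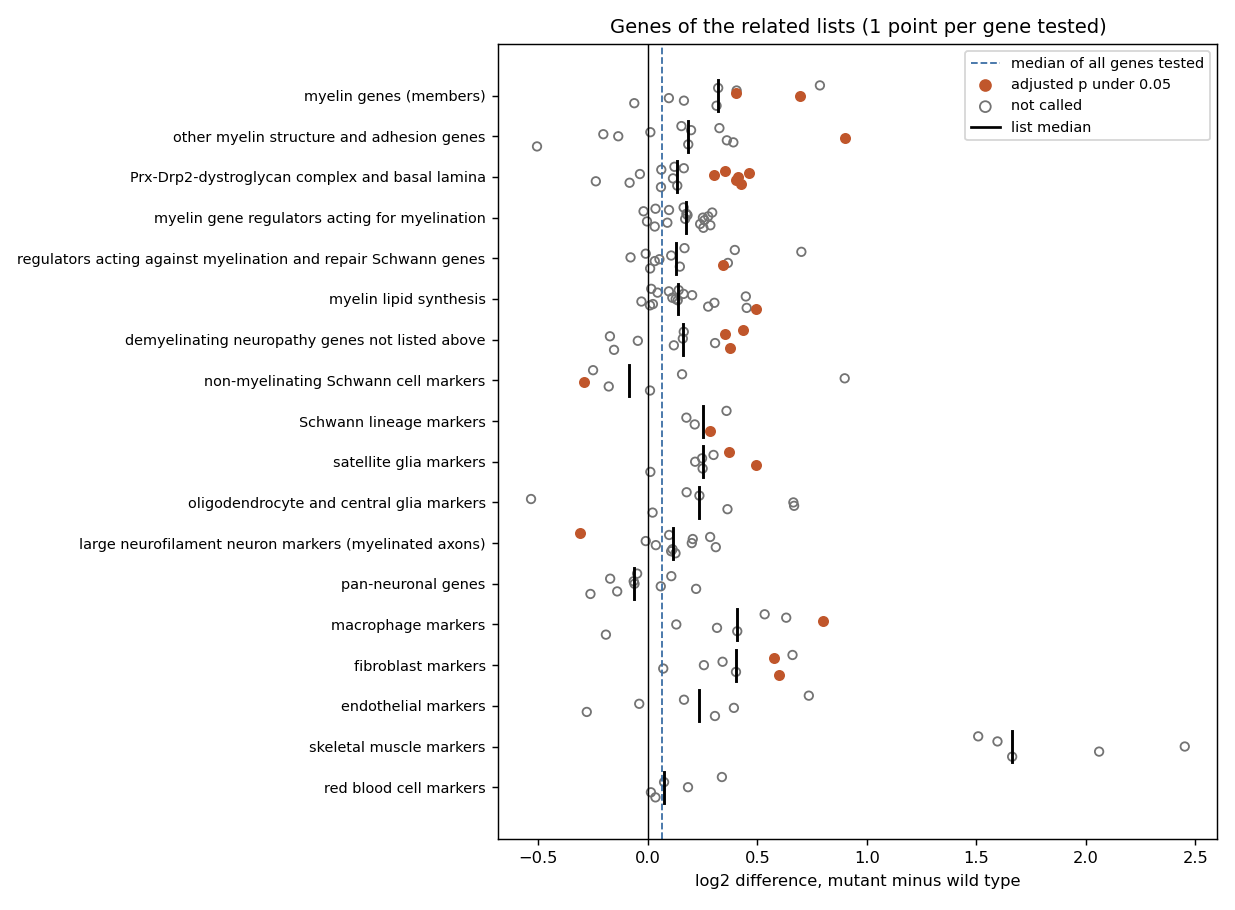
Log2 difference between mutant and wild type (x axis) for each tested gene of the myelin group and 17 related lists (rows); filled orange points have an adjusted p under 0.05, open points do not, and the black bar is the list median. The list that joins the complex around Prx and Drp2 to the basal lamina holds 6 called genes, all to the right of 0.

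Of 17 regulators that act for myelination, limma called 0, and voom on recovered reads called 0. Limma called 2.81% of all genes higher and 2.64% lower. At an unadjusted p under 0.05, 8 were higher and 0 lower, beside the 14.1% and 7.21% of all genes. Their median difference was 0.18. Sox10, the lineage factor that works with Egr2, was at 6.14, 6.03, 5.81 and 6.14 log2 CPM across the wild-type ganglia, against 6.42, 6.10, 6.30 and 6.32 across the mutant ones (0.25, SE 0.09; limma adjusted p = 0.104). Of 12 tested genes that act against myelination or mark repair Schwann cells, 1 rose, the receptor Notch1, by 0.34 (SE 0.07; limma adjusted p = 0.0149). Its call was lost in 4 of 22 alternatives, with median centring (0.101), without the variance trend (0.107), without mutant 1 (0.0529) and on the 6 samples with shared numbers and no block (0.0543). Jun, which drives the repair state after nerve injury, differed by 0.01 (SE 0.08; limma adjusted p = 0.961). Of 17 genes of myelin lipid synthesis 1 was called, Fa2h, the hydroxylase of myelin sphingolipids, at 0.49 (SE 0.14) and a limma adjusted p of 0.04998, just under the threshold and called in 9 of 22 alternatives. Voom on recovered reads called 0 of these lipid genes, whose median was 0.14.

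Further genes of inherited demyelinating neuropathy held 3 that rose among 10, against 2.81% of all genes called higher, with a median of 0.16. These were Ndrg1, a Schwann cell trafficking protein, by 0.38 (limma adjusted p = 0.0221), Arhgef10 by 0.35 (0.0228) and Fbln5, an elastic-fibre protein that fibroblasts also make, by 0.43 (0.0382). Of the 10 genes 7 lay above 0 and 3 below. At an unadjusted limma p under 0.05, 5 were higher and 1 lower, against 14.1% and 7.21% of all genes. The lower one was Fig4 at -0.17 (limma adjusted p = 0.1365), with all mutants below all wild types. Ndrg1 and Arhgef10 were each called in 15 of 22 alternatives and Fbln5 in 7. Of 6 markers of non-myelinating Schwann cells 3 lay above 0 and 3 below, with a median of -0.08, 1 lower call and 2 genes in each direction at an unadjusted p under 0.05. The call was L1cam, which neurons also express, at -0.29 (SE 0.08; limma adjusted p = 0.0373), called in 13 of 22 alternatives. Gfap, an intermediate filament of glia, was at 0.90 (SE 0.38; limma adjusted p = 0.188) and the cadherin Cdh2 at 0.16 (SE 0.07; 0.186).

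Of 4 general Schwann lineage markers 1 was called, against 2.81% of all genes called higher. S100b rose by 0.29 (SE 0.08; limma adjusted p = 0.0438), called in 10 of 22 alternatives. All 4 markers of the list were above 0, against 64.4% of all genes, with a median of 0.25. Their summed level was 593 to 662 CPM over wild-type samples against 705 to 898 CPM over mutant samples. In an analysis chosen after the data were seen, each sample was set relative to the mean log2 CPM of these markers, S100b, Cdh19, Foxd3 and Plekhb1, some of which satellite glia and neurons share. This moved the difference of every gene by the same -0.26, so signs and calls on this scale are relative to the markers alone. The median of all genes tested was -0.19, and 112 genes were called higher and 2935 lower. Ncmap was still higher in the mutant at 0.43 (limma adjusted p = 0.00919), and Egr2 was called at 0.53 (0.0324). Drp2 was at 0.14 (0.294), Pllp at 0.15, Mal at 0.06 and Mbp at 0.05, and none of these was called. Pmp22 was lower in the mutant at -0.32 (limma adjusted p = 0.0228), and Prx at -0.09 and Mag at -0.16 were not called.

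Markers of other cells were also called, and their part in the myelin differences was not tested. Of all genes 2.81% were called higher and 14.1% were higher at an unadjusted limma p under 0.05. Satellite glia markers summed to 1912 to 2340 CPM over wild-type samples against 2125 to 2959 over mutant samples, with Glul (0.49; limma adjusted p = 0.0101) and Ptprz1 (0.37; 0.00996) called among 7. Fibroblast markers summed to 942 to 1619 and 1305 to 1978 CPM, with Dcn (0.60; 0.0082) and Apod (0.58; 0.0133) called among 7. Macrophage markers summed to 44.6 to 69.8 and 62.8 to 96.1 CPM, with Cd163 (0.80; limma adjusted p = 0.0208) called among 7 tested. Of these 6 lay above 0 and 1 below, Cd68 at -0.19. The Cd163 call held in 16 of 22 alternatives, not when wild type 8, mutant 1 or mutant 4 was left out. Glul, Dcn and Apod were each called in 20, and Ptprz1 in 19. Pan-neuronal genes had 0 calls among 9, with 3 above 0, 6 below and a median of -0.06. Endothelial markers had 0 calls among 6, with 4 above 0 and 2 below, and red blood cell markers 0 among 5. Skeletal muscle markers summed to 3.49 to 34.8 and 11.1 to 162 CPM, with 0 of 5 tested called by limma or by voom on recovered reads and 5 at an unadjusted p under 0.05. Without mutant 4, which had the highest muscle sum, Ncmap differed by 0.62 (limma adjusted p = 0.00319), Drp2 at 0.36 lost its call (0.054), and the myelin genes called went from 2 to 1.

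Because Mbp, Mag, Mal and Pllp are also oligodendrocyte genes, markers of central glia were examined. The list summed to 44.9 to 70.7 CPM over wild-type samples against 54.68 to 70.02 over mutant samples, and limma called 0 of 7 tested, as did voom, with 1 at an unadjusted p under 0.05. Of its 10 genes Opalin had 0 reads in all 8 libraries, which allows up to 3 reads per library, Klk6 had 1 to 3, Olig2 0 to 5, Mog 1 to 7, Hapln2 2 to 10, Ermn 0 to 13 and Nkx6-2 1 to 13. Mobp, also a myelin gene of oligodendrocytes, had 36, 41, 117 and 175 reads in wild types 1, 3, 4 and 8 and 57, 137, 88 and 88 in the mutants. Aqp4 and Omg, which other cells also express, had 115 to 171 and 112 to 183. The part of such RNA in the levels of Mbp, Mag, Mal and Pllp was not tested. Mog differed by 0.02 (SE 0.46; limma adjusted p = 0.986). Markers of the large neurofilament neurons, whose axons are myelinated, had 0 higher calls and 1 lower call among 11, with a median of 0.11. The call was Ret, which other sensory neurons also express, at -0.31 (limma adjusted p = 0.00994). Of the 11 markers 9 lay above 0 and 2 below, with Nefh at 0.13 (SE 0.06, limma adjusted p = 0.257). At an unadjusted limma p under 0.05, 3 were higher and 1 lower, against 14.1% and 7.21% of all genes.

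Of the members 4 overlap another annotated gene in GENCODE M21 (GRCm38): Mbp and Ncmap each a processed pseudogene, and Prx and Pllp an antisense gene. The pseudogene in Ncmap had 0 to 3 reads per library and that in Mbp 0 to 1, and the antisense gene of Prx had 10 to 30. Whether counting used the strand is not given in the sources used here. Ncmap lies on chromosome 4 at 135369576 to 135398227, minus strand, and Drp2 on chromosome X at 134404551 to 134456573, plus strand, in that build.

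**Figure D5:**
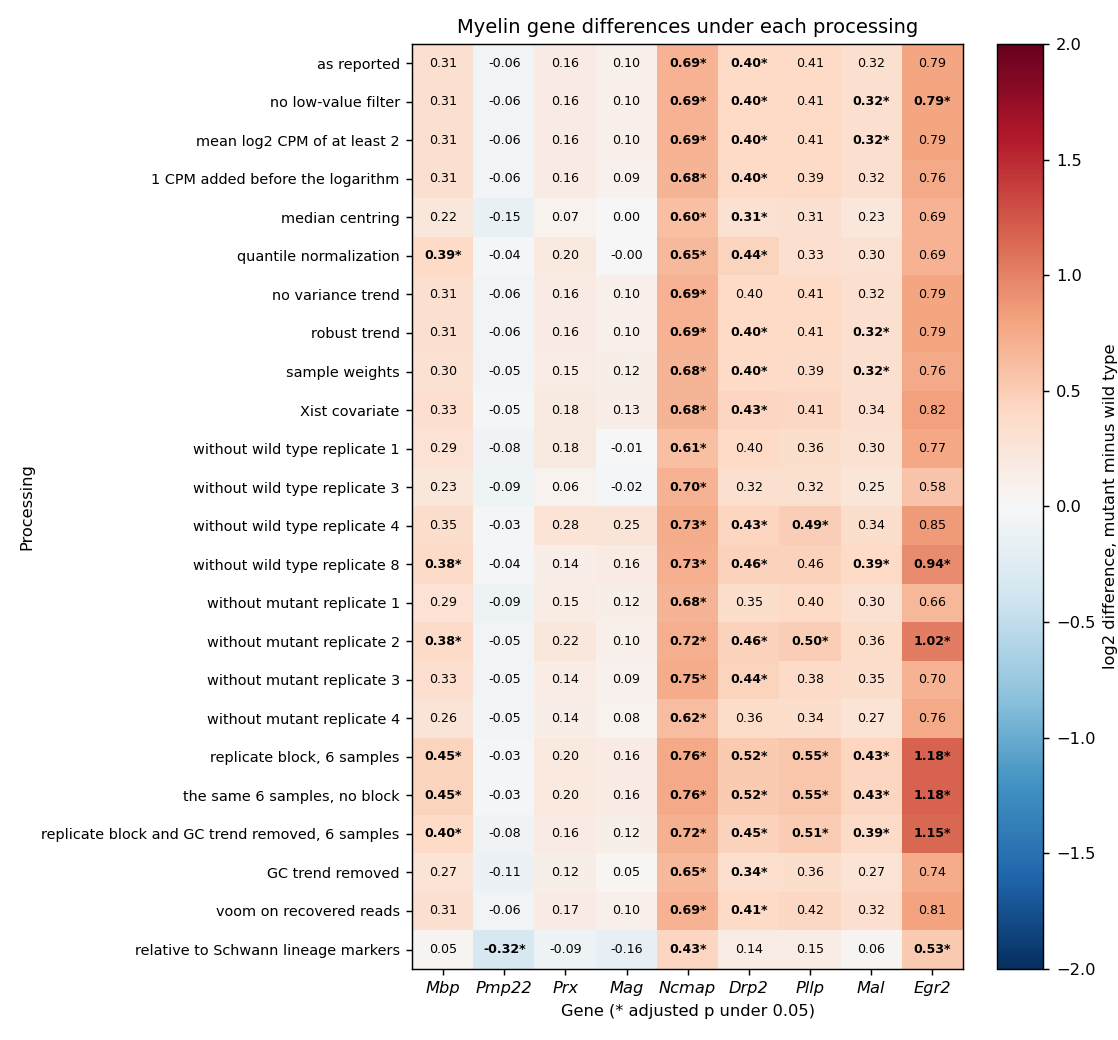
Log2 difference between mutant and wild type for each myelin gene (columns) under each way of processing (rows); bold values with an asterisk have an adjusted p under 0.05. Ncmap is called in every row, Drp2 in all but 6 alternatives, and Prx and Mag in none.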

How the data were processed

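RNA from whole dorsal root ganglia of 4 wild-type and 4 mutant mice was read single-end. The authors deposited moderated log2 CPM per gene. Salmon 0.11.1, DESeq2 and build mm9 are named in the submitters' processing notes, without their roles. A GC percent column, also deposited by the authors, served 1 alternative. Tests used limma 3.58.1 (lmFit, eBayes with a variance trend, two-sided) on 15030 genes above 0 log2 CPM in at least 4 of 8 samples, with Benjamini-Hochberg adjustment over all of them and a threshold of 0.05. The values step in whole reads (100.0% within 0.1 read), so reads and library totals were recovered, and voom on them was an alternative. The mean prior was 2 reads, which shrinks differences of low genes. Where nothing says that samples came from separate litters, p-values measure the spread between these samples. Alternatives covered filters, scaling, variance models, Xist, GC content, the replicate block and leaving out each sample. Named genes were the members and the called genes of the related lists, with a few reference genes. The members and lists were chosen with earlier results of these data known. Results for some genes of the related lists are not reported here. The scripts were tested on simulated data.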

Additional observations from a re-analysis of the deposited data

Results flagged for a closer look

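In 3 of 106 groups of 4 samples 1 sample stood apart from the other 3 by Dixon's criterion at the 95% level, and chance gives about 1 in 20. Pmp22 stood at 9.67 log2 CPM in mutant 1, against 9.53 to 9.54 in the other mutants. Prx was low in mutant 2, at 7.58 against 7.80 to 7.84. S100b was high in mutant 4, at 9.41 against 9.04 to 9.09.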

How the results depend on the processing

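Counts over all genes, 423 higher and 397 lower, became 204 and 706 under median centring. They were 67 and 75 with a constant prior variance (no trend), 256 and 606 once the GC trend was removed, 876 and 612 for an adjusted p under 0.1, and 192 and 136 with an absolute log2 difference of at least 0.5. Quantile normalization gave 271 higher. Leaving out 1 sample gave 174 to 572 higher and 230 to 427 lower, the lowest of both without wild type 1. Dropping wild type 3 left 226 higher, and dropping mutants 1, 2 or 4 in turn left 183, 266 or 206. The numbers 1, 3 and 4 occur in both genotypes, and same-numbered samples deviated together at r of 0.081, 0.041 and 0.058. No differently numbered pairs were set beside these values, so they cannot settle whether the numbers mark pairs. The replicate block on the 6 samples with shared numbers called 326 higher and 345 lower. The same 6 samples without it gave 180 higher, and the block with the GC trend removed 182 higher. All 3 of these fits called 6 myelin genes higher. The count of myelin genes called higher, 2 in the main analysis, was 4 without the low-value filter, 1 with no variance trend, 6 for an adjusted p under 0.1 and 1 with the size limit. Leaving out 1 sample gave 1 to 5. Relative to the Schwann lineage markers, 1 was called lower. That scale shifts every difference alike, which put Prx at -0.094 and Mag at -0.163. Signs also turned, without a call, for Mag with quantile normalization (-0.0019) and without 1 sample (-0.0191 to 0.254). Without 1 sample Jun ranged from -0.0623 to 0.0756 and Mog from -0.289 to 0.307. Jun also turned with median centring (-0.0819) and GC removal (-0.0366), and Mog with median centring (-0.0708), quantile normalization (-0.105) and GC removal (-0.0407). The cause was not tested. Reads per library were 85 to 158 for Mag, 76 to 224 for Egr2 and 1 to 7 for Mog.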
